A study of Mus musculus with 12 samples.

Results

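A set of 10 genes through which macrophages take up, store and export lipid were examined across 12 expression arrays of mouse blood-forming cells. The members were Lpl, Cd36, Fabp4, Fabp5, Plin2, Abca1, Abcg1, Apoe, Pparg and Nr1h3, chosen by name with earlier results of these data known. Every probe set that the platform annotation assigns to 1 of these symbols alone was taken. The members were 10 of 18193 genes on the arrays and had 20 of 34945 probe sets. The series compared cells of control mice with cells of mice that lacked both Stat5a and Stat5b in blood cells, each untreated or treated, in 4 groups of 3 arrays. The treatment field of the labels reads with or without "GMP". The same letters stand in titles of untreated and treated arrays alike, so in the titles they do not mark the treatment and may name the cell population. What they mean in the treatment field is not settled by this. Strain, age, the Cre driver of the deletion and the number of mice per sample are not given in the sources used here. Each of 3 array dates held 1 array of every group.

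In macrophages, lipoprotein lipase frees fatty acids from lipoproteins and CD36 carries fatty acids and oxidized lipoproteins into the cell. Fatty acid binding proteins then shuttle the fatty acids to droplets coated by perilipin 2, while the transporters ABCA1 and ABCG1 pass surplus cholesterol to outside acceptors such as apolipoprotein E particles. The nuclear receptors PPAR gamma and LXR alpha (the products of Pparg and Nr1h3) respond to lipid ligands and are known to drive the uptake genes Cd36 and Fabp4 and the efflux genes Abca1 and Abcg1, and PPAR gamma in alveolar macrophages is known to depend on GM-CSF, the cytokine in the title of the series.

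Promoters of 2 members whose signals were higher with treatment are shown because Abca1 is a known target of LXR alpha and Plin2 of PPAR proteins. Each runs from 250 bases before to 50 bases after the transcription start, 5′ to 3′ on the strand of the gene (RefSeq, GRCm38.p6). Capitals mark matches, on either strand, to the motifs TTCNNNGAA (a STAT pair), AGGTCA (a nuclear receptor half-site), TGANTCA (AP-1), CACGTG (E-box), TATAAA and GGGCGG (GC box). A loose DR4 element, the LXR type, was searched as GGTNA and GGTCA with 5 bases between them. A loose DR1 element, the PPAR type, was searched as AGGNCA and AGGNCA with 1 base between. The half-site can lie within a DR1 or DR4 element.
Abca1, chr4:53159846-53160145, minus strand: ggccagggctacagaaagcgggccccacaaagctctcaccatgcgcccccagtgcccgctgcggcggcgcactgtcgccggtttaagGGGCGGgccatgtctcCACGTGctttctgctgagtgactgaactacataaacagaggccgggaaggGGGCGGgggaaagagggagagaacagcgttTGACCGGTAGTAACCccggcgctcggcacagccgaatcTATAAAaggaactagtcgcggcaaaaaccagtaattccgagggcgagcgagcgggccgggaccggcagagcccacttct
Plin2, chr4:86670010-86670309, minus strand: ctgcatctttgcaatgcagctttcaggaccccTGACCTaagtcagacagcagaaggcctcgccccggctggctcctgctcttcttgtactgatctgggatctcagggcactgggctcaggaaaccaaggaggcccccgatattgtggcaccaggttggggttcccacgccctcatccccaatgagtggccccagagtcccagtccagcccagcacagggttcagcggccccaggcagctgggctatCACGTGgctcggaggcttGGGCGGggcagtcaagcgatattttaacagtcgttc

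The Abca1 window held a DR4 match from 67 to 53 bases before the start, letters found in 0.207% of 32851 promoter windows of 300 bases. It also held an E-box match, found in 7.15% of the windows, a TATA box match (13.6%) and GC box matches (35.7%). The Plin2 window held a half-site match (16.3% of windows), an E-box match across its start and a GC box match. Neither window matched TTCNNNGAA (8.30% of windows), TGANTCA (7.81%) or the DR1 letters (0.381%). Of the 10 members, 6 had a promoter in the table, and these matches describe letters, not binding.

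The signals of Stat5a and Stat5b followed the genotype labels. On the 6 knockout arrays Stat5a lay between 26.7 and 101 and on the 6 control arrays between 375 and 1147, and Stat5b lay between 1.80 and 60.5 against 287 and 1531. Which part of either gene was deleted is not stated. The genes of granulocyte-macrophage progenitors were bright (10 of 10 markers tested, summed signal 77888 to 230343 per array). Of 13 macrophage markers, C1qa, C1qb, C1qc and Siglec1 stayed at or below 70.5, the median of all values, on every array, and 7 were tested. Among the latter, mean signals in untreated control cells ranged from 49.8 for Fcgr1 to 13829 for Csf1r. The 4 arrays of date 2 stood apart, with signals at the 3′ end of Actb 20.8 to 266 times those at its 5′ end, against 1.14 to 2.05 times on the other 8 arrays. Sex-linked genes also differed by date. On date 1 Xist ranged from 64.3 to 172 and the Y-linked gene Eif2s3y from 2169 to 2324, while dates 2 and 3 had Xist from 5061 to 34538 and Eif2s3y from 2.97 to 1833, so date 1 and the other dates are not a clean split by sex. The title of the knockout treated array of date 2 carries another number than those of the other 3 arrays of its date, and what it means is not given in the sources used here.

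Values are MAS5 intensities on a linear scale, and log2 differences are of intensity plus 13, so they understate changes of dim genes. A probe set was tested if it exceeded 70.5 on at least 3 arrays. Of the 20 member probe sets 13 passed, for 8 genes. The other 7 were all 3 of Cd36, the only 1 of Pparg, 2 of Abca1 and 1 of Fabp4. The second probe set of Lpl passed only through treated arrays, as did all those of Fabp4, so these had to differ if they were tested at all. Calls are limma tests with array date as a block and Benjamini-Hochberg adjustment over 21363 probe sets, at an adjusted p under 0.05. The labels do not tell animals apart, and the p-values therefore rest on the variation among these 12 arrays, some of it possibly technical.

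With treatment, 3 of the 13 tested probe sets were called higher in control cells (2 of Lpl and 1 of Fabp4) and 4 in knockout cells (2 of Lpl, and those of Plin2 and Abca1), and 0 were called lower in either. Over all 21363 probe sets, 3.16% were called higher and 1.54% lower in control cells, and 5.77% and 2.89% in knockout cells. Since 4 of the 13 (the second Lpl set and the 3 of Fabp4) exceeded 70.5 on no untreated array, these counts are an account of the members and are not set against the whole. Of the 8 member probe sets above 70.5 on at least 3 of the 6 untreated arrays, counted so after the values were seen, 1 rose in control cells (Lpl) and 3 in knockout cells (Lpl, Plin2 and Abca1). Over the 18887 probe sets that met the same condition, 2.39% were called higher in control and 4.82% in knockout cells. The median log2 difference of the 8 was 0.86 in control and 0.84 in knockout cells, against -0.05 and -0.03 over those 18887. Abcg1 and Fabp5 each had 2 of the 8 probe sets. The members were chosen with earlier results of these data known, so this comparison is a description and cannot show that they stand out. The plot of log2 differences sets out all 13 with their intervals.

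**Figure D1:**
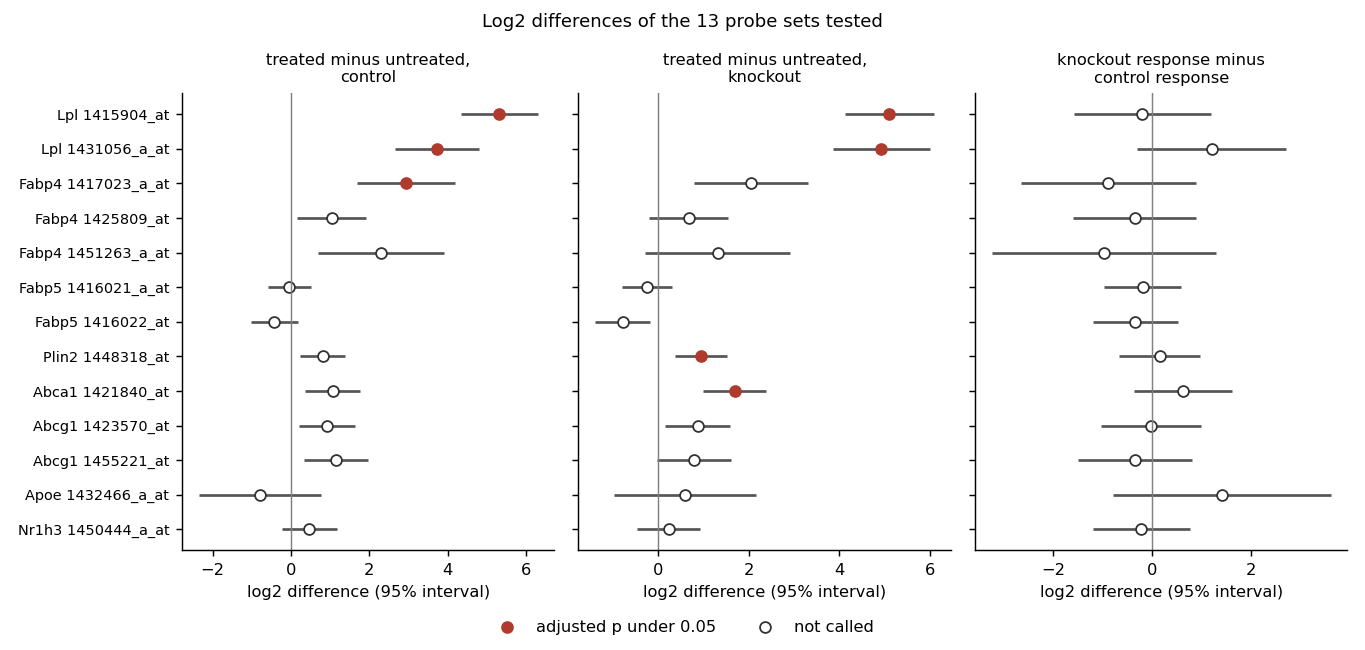
Log2 difference of each tested member probe set (rows) with its 95% interval, for treated minus untreated control cells, treated minus untreated knockout cells and the difference between these responses; filled points have an adjusted p under 0.05. Both Lpl probe sets lie at 3.73 or above in both genotypes, and every interval of the difference of responses spans 0.

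Lpl, which encodes the secreted lipase that splits triglycerides in lipoproteins, was called higher with treatment in both genotypes on both of its probe sets. Its probe set 1415904_at read 304, 295 and 698 on the control untreated arrays of dates 1 to 3 and 11139, 26067 and 14809 on the control treated arrays. In knockout cells it read 612, 354 and 721 untreated and 13143, 30804 and 16909 treated. Treated and untreated arrays were far apart on every date and in both genotypes, while the control and knockout ranges overlapped at either treatment. Lpl rose by 5.31 ± 0.44 on the log2 scale in control cells (SE, limma adjusted p = 3.34e-04), a 39.6-fold change, and by 5.11 ± 0.44 in knockout cells (adjusted p = 3.88e-04), a 34.4-fold change. By date the difference was 5.14, 6.41 and 4.38 in control cells and 4.40, 6.39 and 4.53 in knockout cells.

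The second Lpl probe set, 1431056_a_at, read 34.5, 37.8 and 42.9 in control untreated cells and 742, 239 and 1626 after treatment. In knockout cells it went from 58.2, 39.3 and 39.5 to 1200, 1707 and 2598. The untreated arrays all lay below 70.5 and the treated arrays all above it, so this probe set passed the filter through treated arrays alone. It rose by 3.73 ± 0.48 in control cells (limma adjusted p = 0.00303) and by 4.92 ± 0.48 in knockout cells (adjusted p = 6.76e-04). With only the control groups fitted, the adjusted p of the former was 0.0511. On date 2 the control value was 239 and the knockout value 1707, the largest gap between the genotypes on this probe set. The control treated array of date 2 also had the highest Actb 3′ to 5′ ratio, 266, and the part of RNA quality in this value was not tested.

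**Figure D2:**
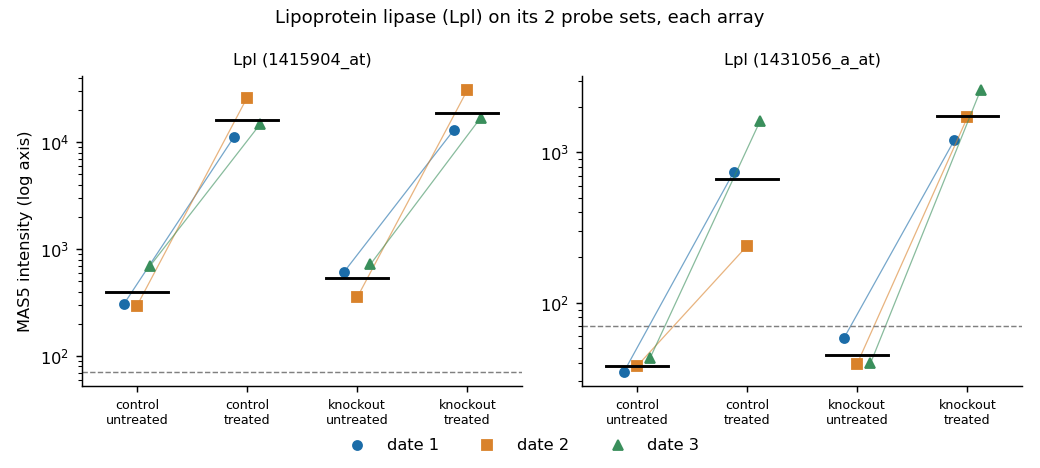
MAS5 intensity (log axis) of the 2 Lpl probe sets on each of the 12 arrays by group; symbols mark the 3 dates, thin lines join arrays of the same date and genotype, thick bars are geometric means, and the dashed line is the median of all values, 70.5. All 6 treated arrays lie above all 6 untreated arrays on both probe sets, with 1415904_at at 11139 or higher after treatment.

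The responses of Lpl in the 2 genotypes did not differ by the test. The difference of responses was -0.20 on 1415904_at (95% interval -1.59 to 1.19) and 1.20 on 1431056_a_at (-0.31 to 2.71), with an adjusted p of 0.99996 for both in limma. For 1431056_a_at the difference was 0.95 without the knockout treated array of date 2, 0.51 without the control treated array of date 2 and 0.43 without date 2. The intervals leave room for a response in knockout cells that is lower or higher by more than 2-fold. Without treatment the knockout minus control difference of 1415904_at was 0.43 ± 0.44, and with treatment 0.22 ± 0.44 (adjusted p = 0.99999 and 0.874).

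Cd36, the scavenger receptor and fatty acid transporter, was dim on all 3 of its probe sets and was not tested. On 1450883_a_at it read 0.672, 2.41 and 19.3 in control untreated cells and 18.8, 102 and 139 in control treated cells. In knockout cells the values were 1.72, 4.76 and 13.9 untreated and 12.1, 19.9 and 18.5 treated. Only the control treated arrays of dates 2 and 3 exceeded 70.5. In a fit of all 34945 probe sets without the filter, this set rose by 2.12 ± 0.38 in control cells (limma adjusted p = 0.0250) and differed by 0.63 ± 0.38 in knockout cells (adjusted p = 0.456). The difference of these responses was -1.49 ± 0.54, below 0 on each of the 3 dates. It did not pass the adjustment (limma unadjusted p = 0.0191, adjusted p = 0.999945). The second Cd36 probe set, 1423166_at, exceeded 70.5 on 1 array, control treated on date 3, at 222. The third, 1450884_at, lay between 0.820 and 39.8 throughout. In the fit without the filter, 1423166_at and 1450884_at differed by 0.92 ± 0.67 and 0.53 ± 0.33 in control cells (limma adjusted p = 0.585 and 0.517). Their differences of responses were -0.06 ± 0.95 and -0.28 ± 0.47, and neither had the same sign on all dates.

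Fabp4, the fatty acid carrier of adipocytes and macrophages and a classic PPAR gamma target, was near the background without treatment. Its probe set 1417023_a_at read 1.97, 4.32 and 9.71 in control untreated cells and 20.01, 240.1 and 307 in control treated cells. In knockout cells it read 3.59, 1.98 and 11.9 untreated and 13.3, 129 and 105 treated. Each treated array lay above all untreated arrays of its genotype, and the date 1 arrays were the lowest treated ones in both. The set rose by 2.94 ± 0.56 in control cells (limma adjusted p = 0.0184), and differed by 2.05 ± 0.56 in knockout cells (adjusted p = 0.0504). The call in control cells was lost without control untreated replicate 2 or 3, control treated replicate 2 or 3, date 2 or the date block, and when the control groups alone were fitted (adjusted p up to 0.164). The knockout value passed with the smaller added constant and without control treated replicate 1 or 2 or knockout untreated replicate 1 (down to 0.0254).

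The other tested Fabp4 probe sets were not called. On 1451263_a_at the control values went from 18.1, 29.7 and 26.7 to 18.3, 352 and 531, and those in knockout cells from 7.29, 38.4 and 9.08 to 17.4, 42.4 and 199. The treated arrays of date 1 overlapped the untreated arrays in both genotypes. This gave 2.29 ± 0.72 in control cells (limma adjusted p = 0.101) and 1.32 ± 0.72 in knockout cells (adjusted p = 0.290). On 1425809_at the values were 1.04 ± 0.40 and 0.68 ± 0.40 (adjusted p = 0.169 and 0.320). The untested set 1424155_at lay between 2.28 and 37.5. Date 1 was also the date with low Xist and high Eif2s3y, and the part of sex in the low Fabp4 and Cd36 values of that date was not tested.

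Pparg, the receptor that acts on Cd36 and Fabp4, was at or near the background in 3 of the 4 groups. Its single probe set (1420715_a_at) read 2.42, 3.44 and 5.33 in control untreated, 5.42, 8.197 and 6.13 in control treated, 1.32, 2.31 and 1.81 in knockout untreated and 26.4, 103 and 8.44 in knockout treated cells. The knockout treated arrays were the highest on each date, and only that of date 2 exceeded 70.5. In the fit without the filter the difference was 1.64 ± 0.44 in knockout cells (limma adjusted p = 0.0780) and 0.23 ± 0.44 in control cells (adjusted p = 0.870). The difference of responses, 1.41 ± 0.62, had an adjusted p of 0.999945 in limma (unadjusted 0.0450). Cd36 and Fabp4, in contrast, had their highest readings in control treated cells. This order is a description of dim values, and no test separated the genotypes for any of the 3 genes after adjustment.

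**Figure D3:**
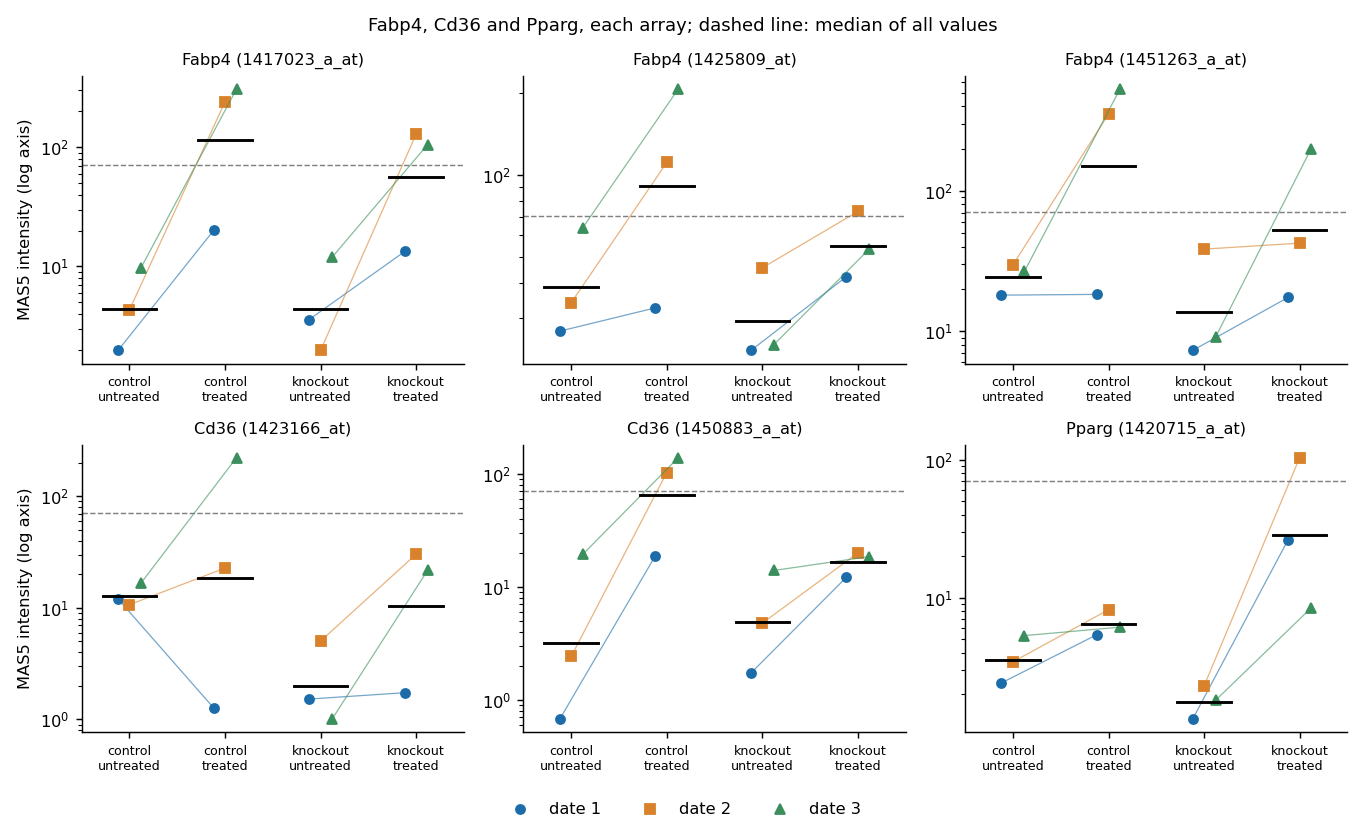
MAS5 intensity (log axis) of 3 Fabp4, 2 Cd36 and the Pparg probe sets on each array, drawn as in the plot of Lpl, with the dashed line at 70.5. The treated arrays of date 1 (circles) are the lowest treated arrays in both genotypes on the Fabp4 set 1417023_a_at, and Pparg exceeds the line on 1 array, knockout treated on date 2, at 103.

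Fabp5, another fatty acid carrier, was above 70.5 on all 12 arrays on both of its probe sets. Its probe set 1416021_a_at read 6430, 15379 and 5685 in control untreated and 4763, 17459 and 6208 in control treated cells, and 6663, 14931 and 7033 against 5719, 10793 and 6885 in knockout cells. The date 2 arrays were the highest in every group and the groups overlapped. The treatment differences were -0.04 ± 0.25 in control (95% interval -0.59 to 0.51) and -0.24 ± 0.25 in knockout cells (-0.79 to 0.31), with adjusted p of 0.949 and 0.604 in limma. On 1416022_at, knockout untreated cells read 1345, 1772 and 1384 and knockout treated cells 835, 731 and 1068, without overlap. That difference was -0.77 ± 0.27 (limma adjusted p = 0.112). Control cells read 1084, 853 and 908 untreated and 701.8, 499 and 976 treated, and differed by -0.42 ± 0.27 (adjusted p = 0.420). Untreated knockout cells were above untreated control cells by 0.65 ± 0.27 on this set, with an unadjusted p of 0.0375 and an adjusted p of 0.99999 in limma.

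Plin2, whose protein coats lipid droplets, was higher with treatment in both genotypes, and this was called only in knockout cells. It read 2881, 4809 and 3239 in control untreated and 6585, 5248 and 6967 in control treated cells. In knockout cells it read 4123, 5107 and 5135 untreated and 10162, 9615 and 8064 treated. The treated arrays lay above the untreated arrays of the same genotype without overlap, although by little on date 2 in control cells. Plin2 rose by 0.95 ± 0.26 in knockout cells (limma adjusted p = 0.0489), a 1.94-fold change, and differed by 0.81 ± 0.26 in control cells (adjusted p = 0.108). The difference of responses was 0.15 (95% interval -0.67 to 0.96). When arrays were left out singly, the call in knockout cells was kept 2 times in 12, without replicate 2 of either control group, and the adjusted p otherwise reached up to 0.160. It was also lost without the date block (0.176), without the filter (0.0993), with the smaller added constant (0.0550) and when the knockout groups alone were fitted. Without date 2 the value in control cells was 1.15 with an adjusted p of 0.0350, and in knockout cells 0.97 with 0.0471.

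Abca1, which loads cholesterol onto lipid-poor apolipoproteins and holds the DR4 match shown above, had 1 tested probe set (1421840_at). It read 209, 187 and 348 in control untreated and 572, 477 and 503 in control treated cells, and 199, 329 and 189 in knockout untreated and 811, 946 and 616 in knockout treated cells. Treated arrays lay above untreated arrays in both genotypes, and all knockout treated arrays lay above all control treated arrays. Abca1 rose by 1.69 ± 0.32 in knockout cells (limma adjusted p = 0.0115), a 3.23-fold change, and differed by 1.07 ± 0.32 in control cells (adjusted p = 0.0835). The difference of responses was 0.62 (95% interval -0.37 to 1.61), and treated knockout cells were above treated control cells by 0.58 ± 0.32 (adjusted p = 0.592). The knockout call was lost without knockout untreated replicate 1 or 3 or knockout treated replicate 2, with an adjusted p of at most 0.0644. The other 2 Abca1 probe sets never exceeded 70.5, with highest readings of 59.5 and 32.1.

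Abcg1, which exports cholesterol to high-density lipoprotein, had log2 differences above 0 in both genotypes that did not pass the adjustment. Its probe set 1423570_at read 934, 809 and 623 in control untreated and 1286, 1423 and 1756 in control treated cells, without overlap. In knockout cells it read 674, 999 and 528 untreated and 1066, 2359 and 909 treated, and the groups overlapped. The differences were 0.91 ± 0.32 in control and 0.88 ± 0.32 in knockout cells (limma adjusted p = 0.140 and 0.123), positive on each of the 3 dates. The other set, 1455221_at, gave 1.14 ± 0.36 and 0.79 ± 0.36 (adjusted p = 0.105 and 0.209). By date its difference in knockout cells was -0.23, 1.82 and 0.79. Without date 2 the set gave 1.21 in control and 0.28 in knockout cells. It read 26.2 to 84.8 untreated and 66.3 to 262 treated over both genotypes.

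Apoe, the lipoprotein component that macrophages secrete, showed no called difference. Its probe set (1432466_a_at) read 424, 84.7 and 615 in control untreated, 501, 11.6 and 390 in control treated, 463, 85.0 and 697 in knockout untreated and 485, 517 and 424 in knockout treated cells. On date 2 the readings were the lowest of their group in 3 groups and the highest in knockout treated cells. The differences with treatment were -0.80 ± 0.70 in control and 0.60 ± 0.70 in knockout cells (limma adjusted p = 0.571 and 0.652), and by date the difference of responses was -0.17, 4.42 and -0.06. The pooled value was 1.40. It was 0.31 without the knockout treated array of date 2 and -0.12 without date 2. The knockout treated array of that date had the lowest Actb 3′ to 5′ ratio among the 4, at 20.8, and the part of RNA quality in the value was not tested.

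Nr1h3, which encodes the oxysterol receptor LXR alpha, lay close to 70.5 in all groups. It read 73.2, 31.5 and 68.3 in control untreated, 65.0, 81.5 and 99.3 in control treated, 51.7, 93.7 and 60.1 in knockout untreated and 67.8, 82.0 and 96.3 in knockout treated cells. The groups overlapped, and the treatment differences were 0.47 ± 0.31 in control and 0.24 ± 0.31 in knockout cells (limma adjusted p = 0.435 and 0.684).

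**Figure D4:**
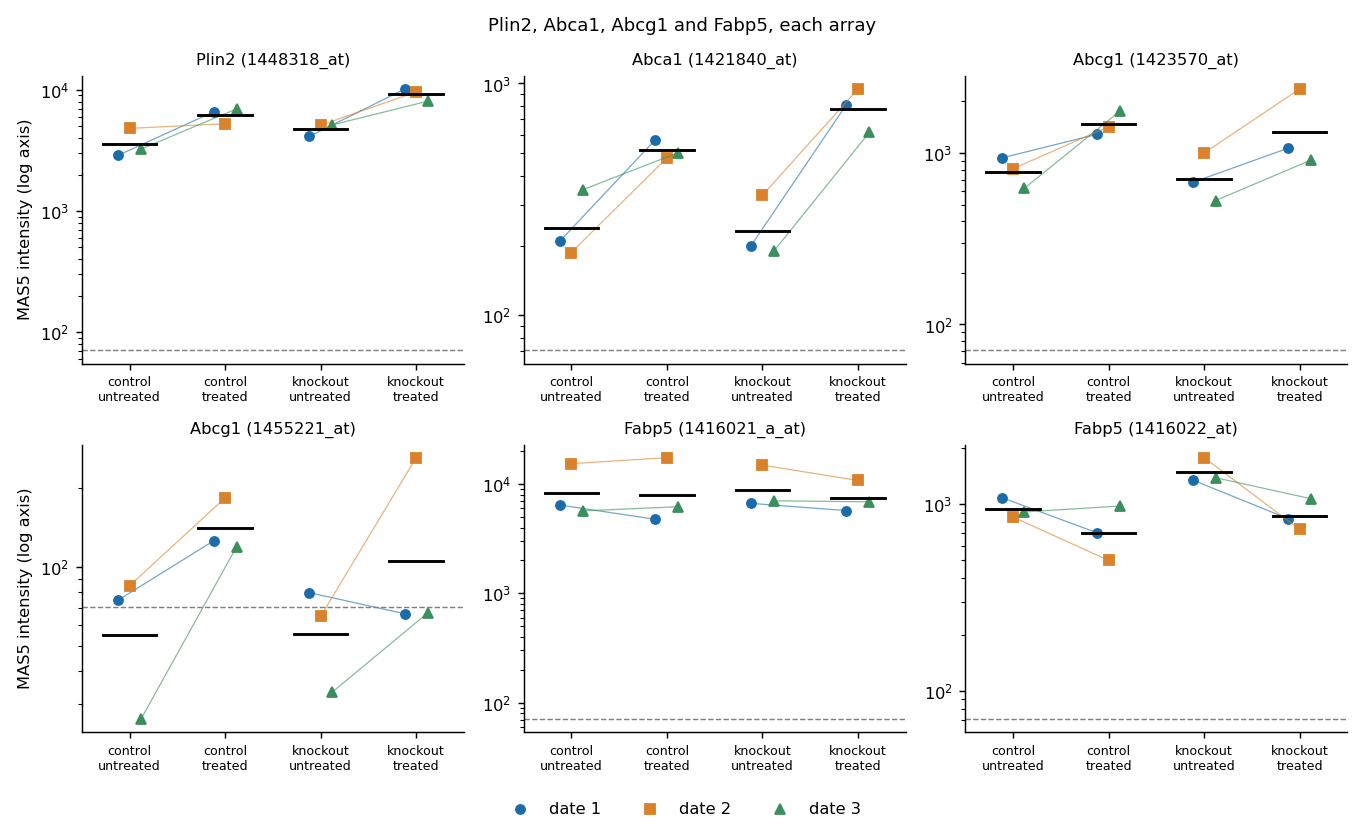
MAS5 intensity (log axis) of Plin2, Abca1, Abcg1 and Fabp5 probe sets on each array, drawn as in the plot of Lpl. Plin2 and Abca1 lie higher in treated than in untreated cells of both genotypes, up to 10162 and 946 in knockout treated cells, while the Fabp5 groups overlap on 1416021_a_at.

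The genotypes were compared directly at either treatment and through the difference of responses. Of the 13 tested member probe sets 0 passed the adjustment in any of these, and over all probe sets 0.00936% passed without treatment, 0.0609% with treatment and 0% for the difference of responses. For the difference of responses limma called 0 of 21363 probe sets, with 549 at an unadjusted p under 0.05, and 0 of these were members. At that unadjusted level 1 member probe set differed between untreated and 1 between treated genotypes, against 2.43% and 8.46% of all probe sets. The 95% interval of the difference of responses reached a median of 1.15 to either side on the log2 scale for the 13. That is the precision of 1 probe set before adjustment, and a call over 21363 probe sets needs a larger difference. Among tested members in treated cells, knockout minus control differences above 1 in size were 1.499 ± 0.70 for Apoe and 1.38 ± 0.48 for the Lpl set 1431056_a_at (limma adjusted p = 0.584 for both), and -1.37 ± 0.72 for the Fabp4 set 1451263_a_at (adjusted p = 0.590). All 3 were largest on date 2. In the fit without the filter, the Cd36 set 1450883_a_at differed by -1.47 ± 0.38 (limma adjusted p = 0.533, unadjusted 0.00287) and Pparg by 1.24 ± 0.44 (adjusted p = 0.684). The Cd36 sets 1423166_at and 1450884_at differed by -0.81 ± 0.67 and -0.37 ± 0.33 (adjusted p = 0.764 and 0.779). The treatment comparisons in the 2 genotypes use separate arrays, but each shares its arrays with the direct comparisons of genotypes.

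The genes whose date-centred values were most like those of Lpl over the 12 arrays were Cyb5r1, Mir22hg and Nupr1, with Pearson correlations of 0.993, 0.992 and 0.990. They changed with treatment by 1.39 ± 0.21, 4.19 ± 0.29 and 4.83 ± 0.34 in control and 1.45 ± 0.21, 4.65 ± 0.29 and 4.57 ± 0.34 in knockout cells. Lpl itself differed mainly by treatment, so genes chosen for likeness to it had to differ with treatment too. Their changes are a description and no further result. Nearest to Abca1 were Zfp296, Stx6 and Ccar1 (0.983, 0.979 and 0.975), and to Plin2 Htra1, Rras and Sh3glb1 (0.968, 0.963 and 0.960). Nearest to Fabp5 were H2aj, Dusp12 and Spsb4 (0.936, 0.926 and 0.918). These correlations describe arrays that share 3 dates and 4 groups.

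Other genes of the same pathways mostly stayed below the threshold. Of 70 tested genes in 5 lists, 2 were called higher and 2 lower in control cells, and 4 higher and 3 lower in knockout cells. Over 11815 genes with 1 probe set each, 3.33% were called higher and 1.81% lower in control cells, and 5.79% and 3.44% in knockout cells. The median log2 difference of the 70 genes was 0.09 in control and 0.19 in knockout cells, against -0.04 and -0.02 over all genes. The lists, too, were chosen with earlier results of these data known. The filter used all arrays, so genes dim without treatment could be tested through treated arrays alone, which limits these counts. Untreated means below 70.5 were found, among others, for Msr1 (29.7 in control and 25.4 in knockout cells) and Ch25h (46.0 and 44.5). Their treated means were 169 and 93.8 for Msr1 and 161 and 193 for Ch25h.

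Among regulators of lipoprotein lipase and related lipases, 9 genes were tested. Sel1l, whose product helps lipoprotein lipase leave the endoplasmic reticulum, rose by 1.09 ± 0.25 in control and 1.01 ± 0.25 in knockout cells (limma adjusted p = 0.0372 and 0.0352). Furin, a protease that cleaves lipoprotein lipase and angiopoietin-like proteins, rose by 1.05 ± 0.22 in control cells (adjusted p = 0.0272) and differed by 0.73 ± 0.22 in knockout cells (adjusted p = 0.0690). Angptl4, which encodes a secreted inhibitor of the lipase and is a PPAR target, fell by 1.76 ± 0.29 in knockout cells (adjusted p = 0.00711) and differed by -0.99 ± 0.29 in control cells (adjusted p = 0.0857). Its mean signal went from 600 to 306 in control and from 794 to 221 in knockout cells. The median over the list was 0.12 in control and 0.26 in knockout cells.

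None of the 11 other lipid uptake receptors tested was called in either genotype by limma, with 2 in control and 3 in knockout cells at an unadjusted p under 0.05 (median log2 difference 0.32 and 0.51). Over all 11815 genes, 22.2% in control and 25.7% in knockout cells were under that unadjusted level. The very low density lipoprotein receptor gene Vldlr, singled out after its values were seen, had the largest difference, 2.72 ± 0.72 in control and 2.62 ± 0.72 in knockout cells (adjusted p = 0.0613 and 0.0512). Its mean signal was 70.8 (SD 68.0) untreated and 565 (SD 560) treated in control cells. In knockout cells it was 28.9 (SD 18.1), below 70.5, and 242 (SD 90.7). The scavenger receptor gene Msr1, likewise singled out, differed by 1.39 ± 0.67 and 1.48 ± 0.67 (adjusted p = 0.268 and 0.201). Of 18 lipid droplet and fatty acid genes, 1 rose in knockout cells and 0 in control cells (median 0.04 in knockout and 0.11 in control cells), where 6 had an unadjusted p under 0.05 in limma. It was Lpin1, a phosphatidate phosphatase gene of triglyceride synthesis, at 2.33 ± 0.38 in knockout cells (adjusted p = 0.00623) and 1.49 ± 0.38 in control cells (adjusted p = 0.0533).

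Of 15 LXR partners, targets and sterol efflux genes, 2 rose in knockout cells and 0 were called in control cells (median 0.19 in knockout and -0.05 in control cells). In control cells 5 of the 15 had an unadjusted p under 0.05 in limma, against 22.2% of all genes. Ch25h, which makes the LXR ligand 25-hydroxycholesterol, rose by 2.08 ± 0.57 in knockout cells (limma adjusted p = 0.0484), and Npc1, the lysosomal cholesterol exporter, by 1.44 ± 0.36 (adjusted p = 0.0350). Their values in control cells were 1.52 ± 0.57 and 0.91 ± 0.36 (adjusted p = 0.158 and 0.180). Of 17 PPAR partners, targets and fatty acid oxidation genes, 2 fell in both genotypes and 0 rose (median -0.17 in control and -0.05 in knockout cells). The mitochondrial thiolase gene Acaa2 changed by -1.27 ± 0.22 and -0.96 ± 0.22 (adjusted p = 0.0118 and 0.0255), and the transcription factor gene Klf4 by -1.32 ± 0.30 and -1.27 ± 0.30 (0.0378 and 0.0306). No gene of these 5 lists was called by limma in the 3 comparisons between genotypes, in which 0.0169% of all genes were called without treatment, 0.0592% with treatment and 0% for the difference of responses.

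**Figure D5:**
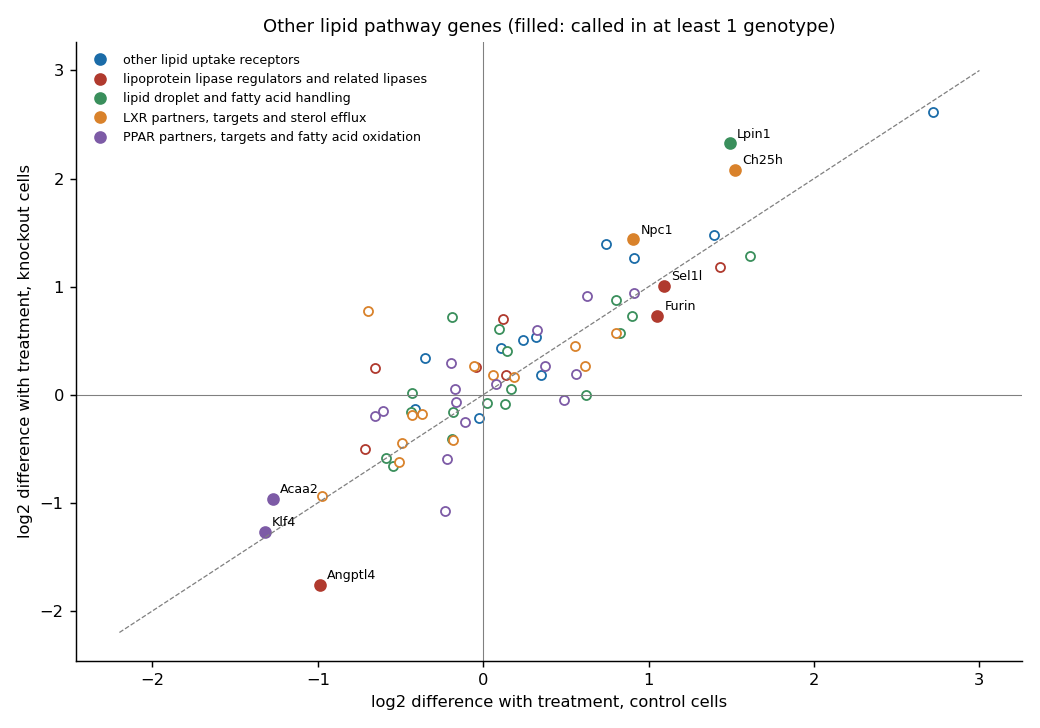
Log2 difference with treatment in control cells (x axis) against knockout cells (y axis) for 70 genes of 5 lipid pathway lists, 1 probe set each; filled points were called in at least 1 genotype and are named, and the dashed line marks equal values. On the y axis Lpin1 lies highest among the named genes, at 1.49 and 2.33, and Angptl4 lowest, at -0.99 and -1.76.

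Markers of cell types that use these lipid genes were read on the same arrays. The summed signal of 13 macrophage markers was 7722 to 27888 in control untreated and 18262 to 43695 in control treated cells, and 8435 to 23945 and 21260 to 34943 in knockout cells. Csf1r weighed most in this sum, with means from 13829 to 20689 in control and 13334 to 18153 in knockout cells. It was not called with treatment (limma adjusted p = 0.196 and 0.252), so the sum does not show the markers rising together. Over all 11815 genes, 3.33% were called higher in control and 5.79% in knockout cells. Of 7 macrophage markers tested, 1 rose in both genotypes, the lipopolysaccharide co-receptor gene Cd14, by 2.63 ± 0.46 and 3.47 ± 0.46 (limma adjusted p = 0.0127 and 0.00267). Of these 7 markers, 6 lay above 0 in control and 4 in knockout cells, with a median of 0.58 and 0.31. In limma 5 of the 7 in control and 3 in knockout cells had an unadjusted p under 0.05. Over all genes 22.2% and 25.7% were under that level. The 6 markers other than Cd14, named after their values were seen, were not called and did not all have the same sign. In control cells they ranged from -1.83 ± 0.52 for Cd163 (adjusted p = 0.0731) to 1.13 ± 0.36 for Mrc1 (adjusted p = 0.102). In knockout cells they ranged from -0.74 ± 0.26 for Adgre1 (adjusted p = 0.116) to 1.08 ± 0.40 for Itgam (adjusted p = 0.130). Of 7 dendritic cell markers 2 rose in control cells (Batf3 by 4.55 ± 0.64 and Cd74 by 1.83 ± 0.35, limma adjusted p = 0.00469 and 0.0174) and 1 in knockout cells (Cd74 by 1.30 ± 0.35, adjusted p = 0.0451). Batf3 differed by 0.46 ± 0.64 in knockout cells (adjusted p = 0.712), and its difference of responses was -4.09 ± 0.90 (limma adjusted p = 0.99996). The mean signal of Batf3 was 15.0 in untreated and 758 in treated control cells, and 42.5 and 67.6 in knockout cells. Only the mean of treated control cells exceeded the filter threshold of 70.5. Batf3 may thus have been tested because it was high there, which limits what its call shows. Among the 7 dendritic cell markers, 3 in control and 2 in knockout cells had an unadjusted p under 0.05 in limma. The markers that were not called ranged from -0.11 for Flt3 to 0.84 for Itgax in control cells and from -0.92 for H2-Ab1 to 1.08 for Itgax in knockout cells. The summed signal of all 9 dendritic cell markers on the arrays includes Batf3 and Cd74. It was 773 to 1485 in untreated and 1605 to 2436 in treated control cells. In knockout cells it was 714 to 1721 untreated and 866 to 2058 treated. The part of macrophages or dendritic cells in the results on Lpl and the other members was not tested. In bulk samples, more cells of a type and more RNA per cell cannot be told apart.

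For adipocytes, which also express Lpl, Fabp4 and Pparg, 5 of 8 listed markers were on the arrays, with a sum of 94.3 to 256. Of these, Adipoq, Lep and Cidec never exceeded 70.5 on any array. Retn exceeded it on too few arrays to be tested, and Slc2a4 was tested, with group means from 67.6 to 84.9. Cfd, Plin1 and Adrb3 had no probe set of their own. The sum of 8 endothelial markers was 674 to 829 in control untreated and 704 to 786 in control treated cells, and 499 to 601 and 408 to 529 in knockout cells. No gene was called with treatment among the tested markers of granulocyte-macrophage progenitors (10), neutrophils (8), endothelium (5), erythroid and megakaryocyte cells (6), mast cells and basophils (4), eosinophils (2), lymphocytes (1) or adipocytes (1). At an unadjusted p under 0.05 in limma, markers of progenitors (3 in control and 2 in knockout cells), neutrophils (3 and 0) and mast cells and basophils (2 and 1) had such members, and those of the other 5 types had none. Over all 11815 genes, 22.2% in control and 25.7% in knockout cells were under that level, so these counts are only a description.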

How the data were processed

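Biotin-labelled total RNA of 12 samples was measured on Affymetrix Mouse430_2 arrays, per the labels. The authors' deposited values are linear MAS5 intensities of 45101 probe sets, with MAS5 named by the submitters' processing notes. Version, scaling target and masking are not given in the sources used here. With 2% of values trimmed from both ends, the array means were all 500.003 or 500.004, which shows scaling to 1 target. No depth exists for an array, and the number of arrays limits the precision.

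Gene names came from the platform annotation, in which 34945 probe sets had 1 gene symbol, 932 several and 9160 none, and 64 were controls. Those with 1 symbol were tested (21363) if at least 3 arrays exceeded 70.5, the median over all arrays and probe sets. limma 3.58.1 in R 4.3.3 fitted log2(intensity + 13) of the 4 groups with date as a block (6 residual and 4.21 prior degrees of freedom). The added 13 is the 20th percentile of all values. Deviations from group means correlated at 0.367 to 0.750 for the 18 pairs of arrays of 1 date, and at -0.680 to 0.435 for the 36 pairs of different dates and groups, so dates pair the samples. The dates come from the sample titles, in which 1 array of date 2 (knockout treated) has another number than its 3 block mates. Calls required a Benjamini-Hochberg adjusted p under 0.05. The fit was also run on simulated data with normal noise as a check of the code. No date stood apart there as date 2 does here, so that check does not bear on these calls. For gene lists, the tested probe set with the highest mean stood for the gene, sets ending in _x_at or _s_at only if no other passed. Genes named from lists were the called ones with the largest change (up to 4 a list for treatment, 2 for other comparisons). Like genes were the 3 with the highest correlation of date-centred values for Lpl, Cd36, Fabp5, Plin2, Abca1 and Pparg, and Cd36 and Pparg had no tested probe set. Alternatives changed the added constant, the filter, the normalization, the block, the groups fitted, array weights and the unit, and left out arrays. The members, lists and tests were chosen with earlier results of these data known.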

Additional observations from a re-analysis of the deposited data

Results flagged for a closer look

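A Cd36 probe set left out by the filter on low values (1450883_a_at) carried a signal in treated control cells above that in untreated ones. Its log2 difference was 2.12 with an adjusted p of 0.0250 in limma over all 34945 probe sets, and only 2 of the 3 control treated arrays exceeded 70.5. The Cd36 sets 1423166_at and 1450884_at gave 0.92 and 0.53 in the same fit (adjusted p = 0.585 and 0.517).

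The knockout minus control difference of Pparg was below 0 on each date without treatment (-0.17 in the fit) and above 0 on each date with it (1.24). The test of this difference is that of the responses, with an unadjusted p of 0.0450 and an adjusted p of 0.999945 in limma, on a probe set that exceeded 70.5 on 1 of 12 arrays.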

How the results depend on the processing

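Of 1372 values of member probe sets under the alternatives, 1337 stayed on their side of the threshold, 25 lost a call and 10 gained one. No called value changed direction, and 72 values that were never called changed sign. Of the 7 called values, 3 were called under every alternative that gave them: Lpl 1415904_at in both genotypes and Lpl 1431056_a_at in knockout cells. The set 1431056_a_at passed the filter only through treated arrays, so its calls add no support of their own. Calls gained were those of Fabp4 given above, Fabp4 1451263_a_at in control cells without control treated replicate 1, Plin2 in control cells with array weights or without date 2, and Abca1 and both Abcg1 probe sets in control cells with array weights.

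The counts over all probe sets moved more. Without the replicate block (date), 172 were called for treatment in control cells, 343 for treatment in knockout cells, 1 between untreated and 2 between treated genotypes. With array weights the counts were 3519 and 3676, with 76 between treated genotypes and 3 for the difference of responses. Fitting only the groups compared gave 215, 949, 0 and 0, and no filter on low values gave 548, 1045, 0 and 7. The difference of responses cannot be fitted from 2 groups. An added constant of 42 gave 2 for the difference of responses and 27 for treated genotypes, and one of 5 gave 6 for treated and 0 for untreated genotypes. The filter on all arrays of a group gave 1 for the difference of responses, and 1 probe set a gene gave 7 for treated genotypes. Leaving out 1 array gave 264 to 1219 for treatment in control cells, 572 to 2550 in knockout cells, 0 to 1 for the difference, 0 to 2 untreated and 0 to 11 treated. The cause of these moves was not tested, except that fewer groups or arrays leave fewer degrees of freedom. Signals near 70.5 limit what can be said of Cd36, Fabp4, Pparg and Nr1h3.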
